A study of Homo sapiens with 6 samples.

Results

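The aryl hydrocarbon receptor and its gene battery are taken here as 7 genes, AHR, ARNT, CYP1A1, CYP1B1, UGT1A6, AHRR and TIPARP, of 27852 gene symbols in the deposited table. They were taken by symbol, after each transcript was counted once and the values were summed by symbol. The libraries hold poly(A) RNA of 3 established lines of human oral squamous carcinoma, HSC3, HSC4 and SAS. Each line was grown in HPLM, a medium composed to resemble human plasma, or in DMEM, a standard culture medium, and both media carried 10% heat-inactivated fetal bovine serum and an antibiotic-antimycotic mix. Each combination of line and medium gave 1 library, 6 in all. The lines therefore serve as the replicates of a medium, and p-values measure only the spread over these libraries, which the labels do not describe as separate cultures. Estimated counts per library summed to between 17716006 and 20171713.

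AHR is a transcription factor that waits in the cytosol with the chaperone HSP90 until it binds a small molecule, such as a combustion product, a plant indole or a breakdown product of tryptophan. It then enters the nucleus, pairs with ARNT and binds DNA at the xenobiotic response element, whose core letters are GCGTG. Its classic targets are the oxidising enzymes CYP1A1 and CYP1B1, the glucuronide-adding enzyme UGT1A6, and 2 genes that feed back on the receptor: AHRR, a repressor that competes for ARNT, and TIPARP, an enzyme that adds ADP-ribose to AHR. The receptor is best known in barrier epithelia, which meet smoke and dietary compounds directly.

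The 7 epithelial markers were KRT5, KRT14, KRT6A, KRT17, TP63, EPCAM and CDH1, of which EPCAM and CDH1 are not particular to squamous epithelium. All 7 were detected in every library. Their summed levels lay between 1480 and 4000 CPM in HPLM and between 1960 and 4800 CPM in DMEM. CPM are estimated counts scaled to a common library size. KRT5 carried the largest share of the sum, and single keratins were far lower in some lines. KRT14 had 10.8 CPM in HPLM and 4.39 CPM in DMEM in HSC4, and KRT6A had 8.21 CPM in HPLM and 13.1 CPM in DMEM in SAS. The 4 leukocyte markers summed to between 2.91 and 5.23 CPM in HPLM and between 2.8 and 3.76 CPM in DMEM, with MS4A1 listed at 0 throughout. The 4 fibroblast markers came to between 2.12 and 5.43 CPM in HPLM and between 1.4 and 5.91 CPM in DMEM. The 3 endothelial markers came to between 0.307 and 2.49 CPM in HPLM and between 0.47 and 1 CPM in DMEM.

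The promoters of CYP1A1, UGT1A6 and AHRR are shown because their transcripts carry the results that follow, and because UGT1A6 and AHRR each have more than 1 start. The sequences are from RefSeq (GRCh38.p14), each with 250 bases before and 50 after an annotated start, 5′ to 3′ on the gene's strand, and capitals mark the core GCGTG on that strand. CYP1A1 lies on the minus strand at chr15:74725479-74725778, the UGT1A6 upstream window on the plus strand at chr2:233691452-233691751, the UGT1A6 downstream window on the plus strand at chr2:233692640-233692939, and the first AHRR window in RefSeq on the plus strand at chr5:321464-321763. GENCODE 29 also has AHRR transcripts that start farther upstream, at 304176, which this window does not cover.
CYP1A1: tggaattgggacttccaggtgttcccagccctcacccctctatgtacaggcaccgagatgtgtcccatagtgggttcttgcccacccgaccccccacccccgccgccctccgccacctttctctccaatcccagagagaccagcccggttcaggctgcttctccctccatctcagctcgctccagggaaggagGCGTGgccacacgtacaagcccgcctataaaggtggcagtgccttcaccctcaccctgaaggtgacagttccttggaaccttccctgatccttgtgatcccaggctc
UGT1A6 upstream start: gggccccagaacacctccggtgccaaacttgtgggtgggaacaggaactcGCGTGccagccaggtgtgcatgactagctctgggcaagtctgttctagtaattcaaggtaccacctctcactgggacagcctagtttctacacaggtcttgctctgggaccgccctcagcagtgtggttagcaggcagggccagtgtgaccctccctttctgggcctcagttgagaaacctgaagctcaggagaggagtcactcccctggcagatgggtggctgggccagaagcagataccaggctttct
UGT1A6 downstream start: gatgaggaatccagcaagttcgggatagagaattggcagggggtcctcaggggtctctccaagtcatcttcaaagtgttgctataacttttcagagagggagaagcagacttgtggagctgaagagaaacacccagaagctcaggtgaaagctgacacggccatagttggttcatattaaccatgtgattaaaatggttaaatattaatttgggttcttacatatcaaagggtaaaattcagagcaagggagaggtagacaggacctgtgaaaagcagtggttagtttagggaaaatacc
AHRR, first RefSeq window: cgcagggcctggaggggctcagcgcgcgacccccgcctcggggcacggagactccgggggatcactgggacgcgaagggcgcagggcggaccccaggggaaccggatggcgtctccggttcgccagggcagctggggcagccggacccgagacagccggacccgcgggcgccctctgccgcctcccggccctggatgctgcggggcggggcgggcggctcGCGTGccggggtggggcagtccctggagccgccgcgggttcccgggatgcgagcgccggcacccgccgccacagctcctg

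The CYP1A1 window holds the core GCGTG at position -57 from the start, the upstream UGT1A6 window at -200 and this AHRR window at -30. Sequence more than 250 bases before a start was not searched for any gene, so sites farther upstream are not covered. The downstream UGT1A6 window has no match to the core on either strand. Over both strands, 6 of the 10 windows found for 6 of the 7 members had the core, against 36.5% of 35116 windows of the same length. The longer motif TNGCGTG, which contains the core, was in 2 of the 10, the upstream UGT1A6 window and this AHRR window, against 5.51% of all windows. The core also occurs in a common form of the hypoxia response element, so the letters do not name a factor. The antioxidant response core TGACNNNGC was in the downstream UGT1A6 window at -98 and in the ARNT window at -183, against 13.3% of all windows.

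**Figure D1:**
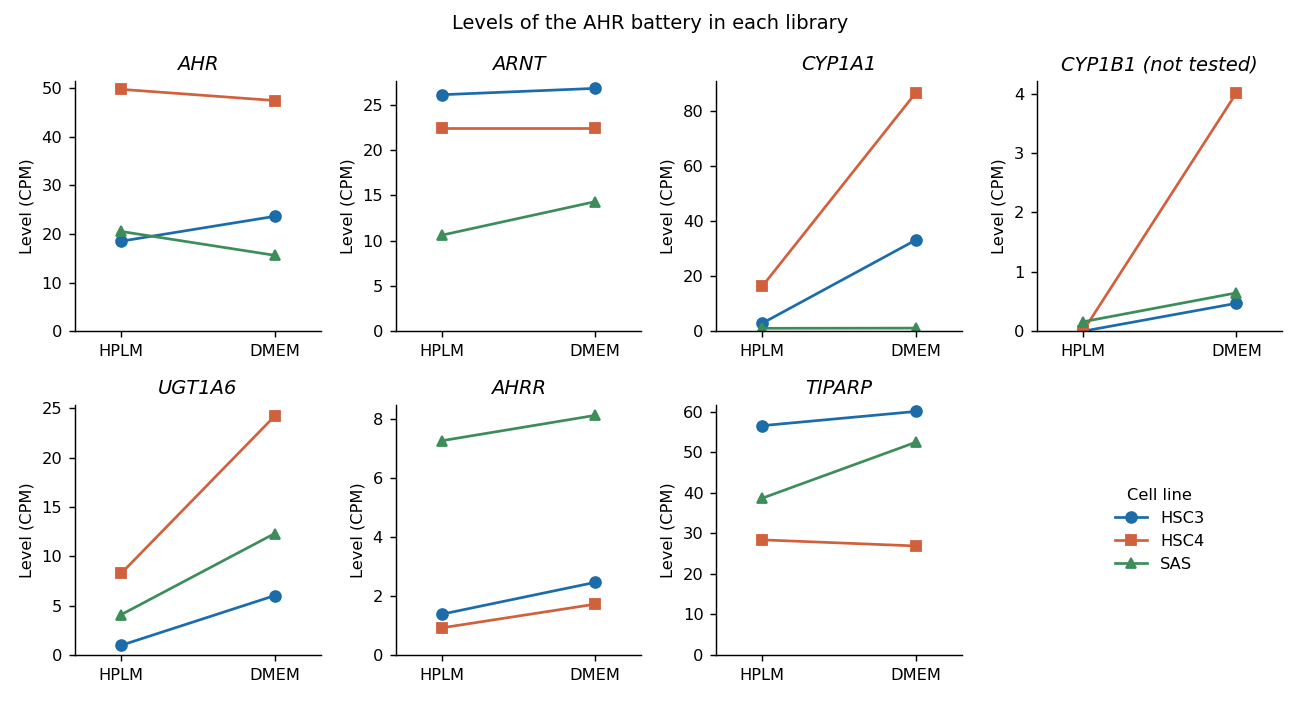
Level of each of the 7 genes in CPM (vertical axis, linear, from 0, with its own scale per gene) in HPLM and DMEM, with 1 point per library and a line joining the libraries of 1 cell line. CYP1A1 in HSC4 had 16.4 CPM in HPLM and 86.8 CPM in DMEM, while the SAS points lie near the axis in both media.

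For the receptor itself no difference between media passed the test. AHR (GRCh38, chromosome 7, 16916359 to 17346152, plus strand) had 18.5 CPM in HSC3, 49.7 CPM in HSC4 and 20.5 CPM in SAS in HPLM, against 23.6, 47.4 and 15.6 CPM in DMEM. The groups overlap over most of their range, and HSC4 was highest in either medium. The log2 fold change of HPLM over DMEM was 0.04 ± 0.15 (SE, n = 3 lines; edgeR quasi-likelihood test, adjusted p = 0.957). AHR averaged 29.6 ± 17.5 CPM in HPLM and 28.9 ± 16.5 CPM in DMEM (SD, n = 3 each). In a bulk sample, fewer cells with a transcript and less RNA per cell cannot be told apart, here and in every level given.

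The table held 1 protein-coding AHR transcript, and another was not analysed here. The one in the table had 11 CPM in HSC3, 21.2 CPM in HSC4 and 9.5 CPM in SAS in HPLM, against 11.1, 21.7 and 8.47 CPM in DMEM. It made up 59.2%, 42.6% and 46.4% of the AHR sum in HPLM, and 47.1%, 45.8% and 54.4% in DMEM, in the same order of lines. The rest came from transcripts that are not protein-coding, and AC073332.1 overlaps AHR on the other strand. For the coding transcript alone the log2 fold change was 0.04, with an adjusted p of 0.948 by edgeR.

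ARNT, the partner that AHR needs for DNA binding (chromosome 1, 150809705 to 150876768, minus strand), had 26.1 CPM in HSC3, 22.4 CPM in HSC4 and 10.6 CPM in SAS in HPLM, against 26.8, 22.4 and 14.3 CPM in DMEM. SAS was lowest in both media and the media overlap. The log2 fold change was -0.15 ± 0.13 (SE, n = 3 lines; edgeR adjusted p = 0.744). Its 4 protein-coding transcripts together were at 115% of the DMEM level for HSC3, 100% for HSC4 and 97% for SAS.

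CYP1A1, which oxidises polycyclic hydrocarbons and is the usual readout of receptor activity (chromosome 15, 74719542 to 74725610, minus strand), had 2.92 CPM in HSC3, 16.4 CPM in HSC4 and 1.06 CPM in SAS in HPLM. In DMEM it had 33.2 CPM in HSC3, 86.8 CPM in HSC4 and 1.13 CPM in SAS. The HPLM level was lower within HSC3 and HSC4, and in SAS the gene rested on 20 estimated counts in HPLM and 21 in DMEM. Because the lines differ so much, the media overlap when the lines are pooled. The ratio in HSC3 was -3.46 on the log2 scale, and 23 of the 13236 tested genes had a lower one there. In HSC4 the log2 ratio was -2.40, with 56 genes lower, and in SAS it was -0.08, with 5120 genes lower.

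UGT1A6, which makes phenols soluble by adding glucuronic acid (chromosome 2, 233691607 to 233773300, plus strand), was lower in HPLM within every line. It had 0.973 CPM in HSC3, 8.26 CPM in HSC4 and 4.08 CPM in SAS in HPLM, against 6.01, 24.2 and 12.3 CPM in DMEM. Pooled over lines the media overlap, since HSC4 in HPLM stood above HSC3 in DMEM. The log2 ratios were -2.51 for HSC3, -1.54 for HSC4 and -1.57 for SAS, and 78, 149 and 135 of the tested genes had lower ratios in those lines. The gene was thus near the low end of all ratios in SAS also, where CYP1A1 was not. Whether the CYP1A1 difference between media differs between lines was not tested, since each line has 1 library per medium.

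CYP1B1, the other oxidising enzyme, which also acts on oestrogens (chromosome 2, 38066973 to 38109902, minus strand), was barely detected outside HSC4 in DMEM. It was listed at 0 in HSC3 and HSC4 and had 0.159 CPM in SAS in HPLM, against 0.47, 4.01 and 0.645 CPM in DMEM. The estimated counts behind these were 0, 0 and 3 in HPLM and 9, 84 and 12 in DMEM. The HPLM value was the lower one within each line, but the gene did not pass the filter on low counts and no fold is given. Without that filter its unadjusted p was 0.0101 and its adjusted p 0.525 by edgeR. Of its 7 annotated transcripts 4 were in the table under its symbol, and 3, of which 2 are protein-coding, were not analysed here, so the level given is that of part of the gene. CYP1B1-AS1 overlaps it on the other strand.

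AHRR, the repressor (chromosome 5, 304176 to 438291, plus strand), had 1.38 CPM in HSC3, 0.917 CPM in HSC4 and 7.26 CPM in SAS in HPLM, against 2.46, 1.72 and 8.12 CPM in DMEM. It was lower in HPLM within each line, by little in SAS, and the pooled media overlap. Its log2 fold change was -0.58 ± 0.28 (SE, n = 3 lines; edgeR adjusted p = 0.549). AHRR shares its locus with the PDCD6-AHRR readthrough, and 3 of its 11 transcripts are in the table under that symbol or under none. Those 3 together had 1.18 CPM in HSC3, 0.88 CPM in HSC4 and 4.82 CPM in SAS in HPLM, against 4.4, 1.43 and 5.6 CPM in DMEM. With all 11 transcripts summed, the HPLM level was 37.6% of the DMEM level for HSC3, 56.3% for HSC4 and 88% for SAS. The log2 fold change was then -0.76, with an adjusted p of 0.45 by edgeR.

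TIPARP, the ADP-ribosylating enzyme (chromosome 3, 156673235 to 156706770, plus strand), had 56.6 CPM in HSC3, 28.4 CPM in HSC4 and 38.7 CPM in SAS in HPLM, against 60.1, 26.9 and 52.5 CPM in DMEM. The media overlap, and SAS showed the widest gap between them. The log2 fold change was -0.15 ± 0.12 (SE, n = 3 lines; edgeR adjusted p = 0.719). TIPARP-AS1 overlaps its first bases on the other strand, and whether strand was used in quantification is not given in the sources used here.

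**Figure D2:**
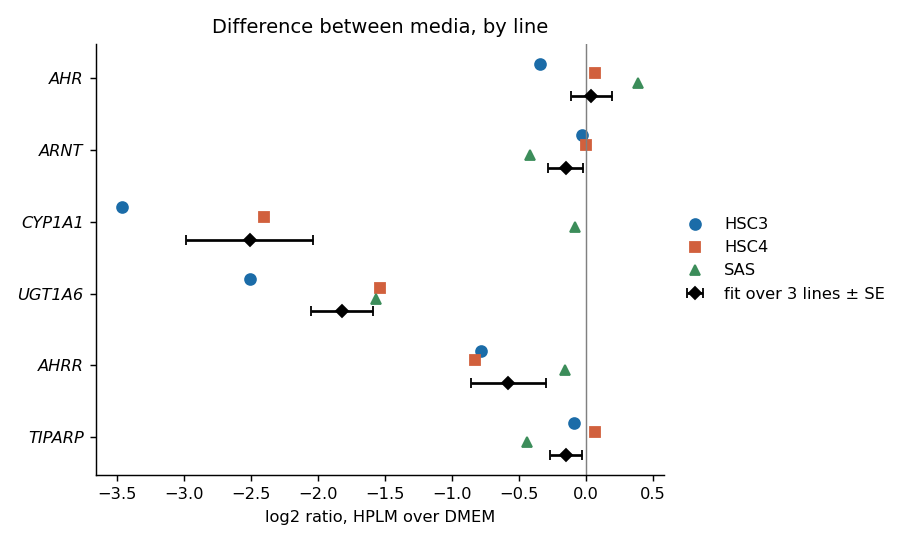
Log2 ratio of HPLM over DMEM (horizontal axis) for the 6 tested genes, with 1 coloured point per cell line and a black diamond for the fit over the 3 lines with its SE. CYP1A1 in HSC3 lies at -3.46 and in SAS at -0.08, UGT1A6 lies below -1 in every line, and AHR, ARNT and TIPARP lie within 0.5 of 0.

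Across the battery, UGT1A6 was lower in HPLM within all 3 lines and CYP1A1 within HSC3 and HSC4, while AHR, ARNT and TIPARP had log2 ratios between -0.44 and 0.39 in every line, and no member passed the test over the 3 lines. By edgeR, 0 of the 6 tested members were called at an adjusted p under 0.05, where 0.00756% of 13236 genes were called. CYP1A1 had a log2 fold change of -2.51 ± 0.47 (SE, unadjusted p = 0.00179, adjusted p = 0.331 by edgeR), and 12 genes had a lower one. That fit takes a single medium difference for all lines, while the CYP1A1 log2 ratios ran from -3.46 in HSC3 to -0.08 in SAS. By limma-trend its log2 fold change was -1.98. UGT1A6 had a log2 fold change of -1.82 ± 0.23 (SE; unadjusted p = 0.00023, adjusted p = 0.197 by edgeR), and 13 genes had a smaller p. These 2 were the members with an unadjusted p under 0.05, both lower in HPLM, where 10.1% of genes had such a p and 4.55% had it with the lower value in HPLM. DESeq2 called 1 member, UGT1A6 (adjusted p = 7.67e-06), where it called 0.96% of genes, and limma-voom and limma-trend called 0 members, where they called 0.068% and 0% of genes. Adjusted p over all alternatives lay between 0.0816 and 1 for CYP1A1 and between 7.67e-06 and 1 for UGT1A6.

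In HSC3, 2 of the 6 tested members were at a level at least 4-fold lower in HPLM, CYP1A1 and UGT1A6, where 0.907% of genes were. In HSC4 it was 1 member, CYP1A1, where 0.665% of genes were, and in SAS 0 members, where 0.627% were. At least 2-fold lower were 2 members in HSC3, 2 in HSC4 and 1, UGT1A6, in SAS, where 3.85%, 2.65% and 2.6% of genes were in those lines. Lower in HPLM in all 3 lines were 4 members, CYP1A1, UGT1A6, AHRR and ARNT, of which ARNT in HSC4 was at -0.00, where 17% of genes were. The median log2 fold change of the 6 tested members was -0.37, beside 0.00 over all genes tested.

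At the level of transcripts, the CYP1A1 difference was spread over the gene's coding transcripts. Of its 10 annotated transcripts 8 were in the table, and 2 protein-coding ones were not analysed here. The protein-coding ones held between 87.5% and 100% of its sum in each library. ENST00000379727, the most abundant by the mean over all libraries though not in HSC3 in HPLM or in SAS, had 0.686 CPM in HSC3, 5.38 CPM in HSC4 and 0.367 CPM in SAS in HPLM, against 10.4, 31.6 and 0.424 CPM in DMEM. ENST00000395048 had 0.954 and 4.43 CPM in HSC3 and HSC4 in HPLM, against 8.93 and 23.3 CPM in DMEM, and was listed at 0 in SAS in both media. All coding transcripts together were at 8.91% of the DMEM level for HSC3, 19% for HSC4 and 110% for SAS.

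UGT1A6 transcripts start at several places, and the upstream and the downstream start shown above were both lower in HPLM in every line. The 4 transcripts from the upstream start, whose promoter window carries GCGTG, had 0.603 CPM in HSC3, 4.46 CPM in HSC4 and 2.73 CPM in SAS in HPLM, against 4.15, 16.9 and 8.65 CPM in DMEM. The downstream start has a single transcript, ENST00000305139. Its 300-base window lacks the core, but the upstream window with GCGTG also lies upstream of this start. This transcript had 0.394, 2.07 and 1.36 CPM in HPLM, against 1.85, 7.07 and 3.14 CPM in DMEM. The upstream start was thus at 14.5% of its DMEM level for HSC3, 26.3% for HSC4 and 31.5% for SAS, and the downstream start at 21.3%, 29.3% and 43.4%. Both sets rest on few estimated counts, and the difference between them was not tested. Transcripts marked for nonsense-mediated decay, which make no full-length enzyme, were 32.9% of the UGT1A6 sum for HSC3, 23.9% for HSC4 and 18.8% for SAS in HPLM, against 39.3%, 41.1% and 40.8% in DMEM. The remaining 3 transcripts start farther downstream, between 233693665 and 233693692, and went the other way in HSC4, with 1.72 CPM in HPLM, against 0.167 CPM in DMEM. They were listed at 0 in HSC3 in both media, and in SAS at 0 in HPLM, against 0.527 CPM in DMEM.

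UGT1A6 shares its last exons with the other UGT1A genes of the same locus, so reads may be divided among them. Of all estimated counts at the 9 UGT1A symbols, UGT1A6 held 77.2% for HSC3, 87.2% for HSC4 and 87.4% for SAS in HPLM, against 78.8%, 91.6% and 94% in DMEM. With the locus summed, the log2 fold change was -1.76, with an adjusted p of 0.216 by edgeR. UGT1A1, the bilirubin-conjugating enzyme, had 0.154 CPM in HSC3, 0.54 CPM in HSC4 and 0.477 CPM in SAS in HPLM, against 0.575, 1.57 and 0.699 CPM in DMEM, so it too was lower within each line at a far lower level.

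**Figure D3:**
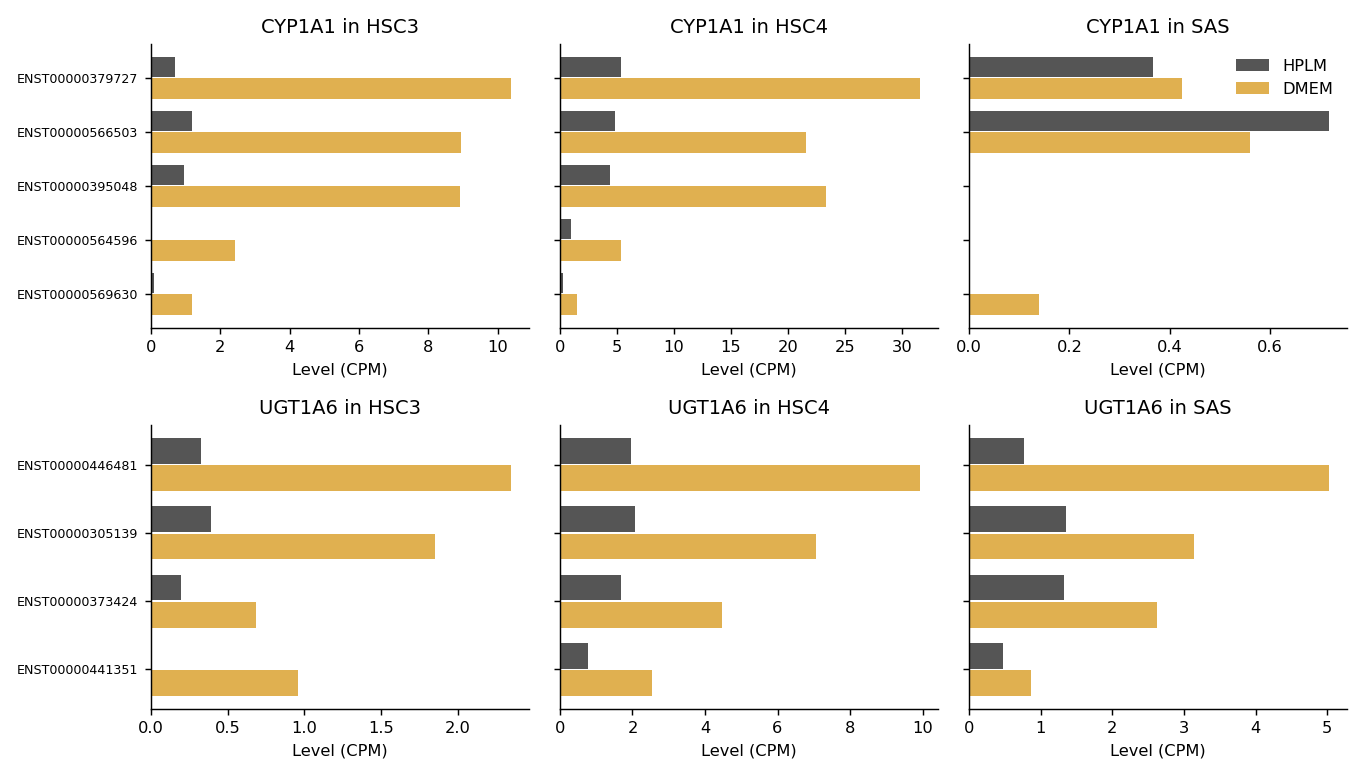
Level in CPM (horizontal axis, linear, from 0, with its own scale per panel) of each CYP1A1 and UGT1A6 transcript with a mean of at least 0.5 CPM, in HPLM (grey bars) and DMEM (yellow bars), 1 library per bar. In HSC3 and HSC4 the HPLM bar of every transcript shown is shorter than its DMEM bar, and in SAS ENST00000566503 had 0.718 CPM in HPLM and 0.56 CPM in DMEM.

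Calls of the 6 tested members between lines by edgeR are given per pair below, each beside the share of all genes. Of all genes, 37.4% were called for HSC3 against HSC4, 39.4% for HSC3 against SAS and 41.3% for HSC4 against SAS. Some member calls were lost with 1 library left out. The values are scaled by transcript length, so levels of different genes can be set side by side, and by the mean over all libraries TIPARP came first at 43.9 CPM. AHR followed at 29.2, CYP1A1 at 23.6, ARNT at 20.4, UGT1A6 at 9.3, AHRR at 3.64 and CYP1B1 at 0.88 CPM on this length-scaled level. This order depends on the transcripts summed under each symbol. The AHR coding transcript in the table averaged 13.8 CPM alone, below the CYP1A1 sum. The AHRR value leaves out 3 of its 11 transcripts, and the CYP1B1 value lacks 2 protein-coding ones. TIPARP stood above 74.8% and AHRR above 21.3% of tested genes by mean level. HSC4 had the highest AHR, CYP1A1 and UGT1A6, HSC3 the highest ARNT and TIPARP, and SAS the highest AHRR by the mean of both media. Neighbours in these orders that did not pass a test were HSC3 and SAS for AHR and TIPARP, and HSC3 and HSC4 for ARNT and AHRR. Each line mean rests on 2 libraries, 1 per medium, the line tests took the medium as a term, and the 3 contrasts share libraries.

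HSC3 against HSC4 gave 4 of 6 tested members called by edgeR, where 37.4% of genes were called. AHR was lower in HSC3, with a mean of 21.1 CPM in HSC3 and 48.6 CPM in HSC4 (log2 fold change -1.20 ± 0.19 SE, adjusted p = 0.00548). UGT1A6 was lower, with 3.49 CPM in HSC3 and 16.2 CPM in HSC4 (-2.39 ± 0.29, adjusted p = 0.00268). CYP1A1 was lower, with 18.1 CPM in HSC3 and 51.6 CPM in HSC4 (-1.76 ± 0.48, adjusted p = 0.0334). TIPARP was higher, with 58.3 CPM in HSC3 and 27.7 CPM in HSC4 (1.07 ± 0.15, adjusted p = 0.00434). ARNT and AHRR did not pass (adjusted p of 0.267 and 0.273). The CYP1A1 call was lost without HSC3 in HPLM (log2 fold change -1.17, adjusted p = 0.127), HSC4 in HPLM (0.134) or HSC4 in DMEM (0.219), and with DESeq2 (0.184) or limma-trend (0.077). Without HSC3 in DMEM the log2 fold change was -2.76 for CYP1A1 and -3.05 for UGT1A6, both still called.

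HSC3 against SAS gave 4 of 6 members called by edgeR, where 39.4% of genes were called. ARNT was higher, with 26.4 CPM in HSC3 and 12.4 CPM in SAS (log2 fold change 1.10 ± 0.16 SE, adjusted p = 0.00397). CYP1A1 was higher, with 18.1 CPM in HSC3 and 1.09 CPM in SAS (3.61 ± 0.68, adjusted p = 0.00952). UGT1A6 was lower, with 3.49 CPM in HSC3 and 8.2 CPM in SAS (-1.39 ± 0.29, adjusted p = 0.0138). AHRR was lower, with 1.92 CPM in HSC3 and 7.69 CPM in SAS (-2.05 ± 0.33, adjusted p = 0.00571). AHR and TIPARP did not pass (adjusted p of 0.385 and 0.107). The CYP1A1 gap was wider in DMEM, with 33.2 CPM in HSC3 and 1.13 CPM in SAS, than in HPLM, with 2.92 CPM in HSC3 and 1.06 CPM in SAS. Without HSC3 in DMEM its log2 fold change was 2.52 (adjusted p = 0.0559), without SAS in DMEM 1.89 (0.0586) and without SAS in HPLM 4.65 (0.00637). The UGT1A6 call was lost without SAS in HPLM (0.0574) or SAS in DMEM (0.0522), and its log2 fold change was -2.07 without HSC3 in DMEM.

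HSC4 against SAS gave all 6 tested members called by edgeR, where 41.3% of genes were called. CYP1A1 had the widest gap, with 51.6 CPM in HSC4 and 1.09 CPM in SAS (log2 fold change 5.37 ± 0.66 SE, adjusted p = 0.00254), and it was 16.4 CPM in HSC4 and 1.06 CPM in SAS within HPLM. AHR was higher, with 48.6 CPM in HSC4 and 18 CPM in SAS (1.43 ± 0.19, adjusted p = 0.00312). UGT1A6 (1.00 ± 0.27, adjusted p = 0.0287) and ARNT (0.86 ± 0.16, adjusted p = 0.00856) were higher in HSC4. AHRR was lower, with 1.32 CPM in HSC4 and 7.69 CPM in SAS (-2.59 ± 0.34, adjusted p = 0.00315), and TIPARP was lower, with 27.7 CPM in HSC4 and 45.6 CPM in SAS (-0.71 ± 0.15, adjusted p = 0.0145). SAS thus had the highest AHRR and the lowest CYP1A1 of the 3 lines. With all AHRR transcripts summed, AHRR remained lower in HSC3 than in SAS (-1.59, adjusted p = 0.0121) and in HSC4 than in SAS (-2.46, adjusted p = 0.00347). The UGT1A6 call was lost without any 1 of the 4 libraries compared, HSC4 in HPLM (0.162), HSC4 in DMEM (0.0855), SAS in HPLM (0.0715) or SAS in DMEM (0.189). The ARNT call was lost without HSC4 in HPLM (0.0603) or SAS in HPLM (0.0549), and the TIPARP call without HSC4 in DMEM (0.119) or SAS in DMEM (0.0941). CYP1A1 was at 6.46 without SAS in HPLM and at 3.71 without SAS in DMEM, called in each.

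**Figure D4:**
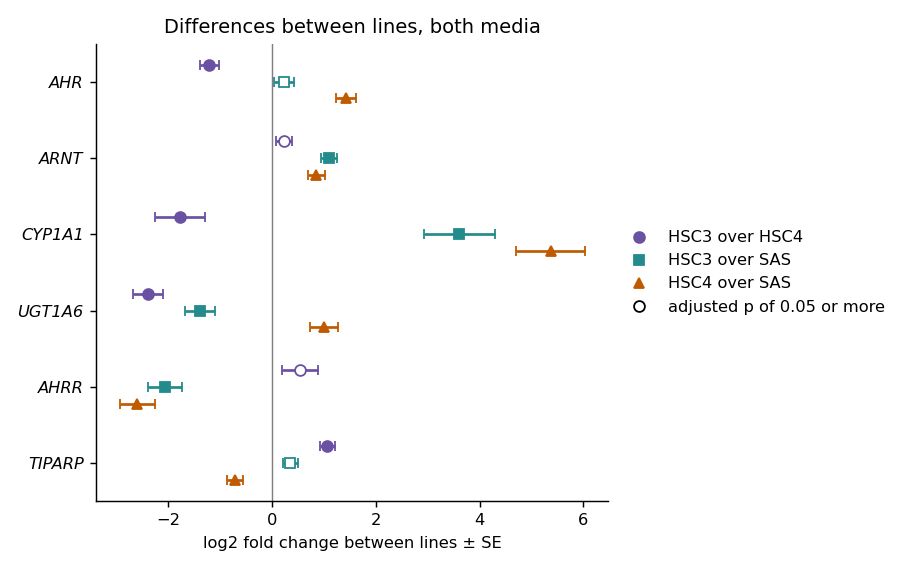
Log2 fold change between lines (horizontal axis, with SE as error bars) of the 6 tested genes, fitted over both media, for HSC3 over HSC4, HSC3 over SAS and HSC4 over SAS. Filled markers have an adjusted p under 0.05; CYP1A1 reaches 5.37 for HSC4 over SAS and AHRR -2.59.

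The machinery around the receptor gave no called gene between media by edgeR or DESeq2. Over all genes, here and for the lists that follow, edgeR called 0.00756% and DESeq2 0.96%. Of 9 genes of the receptor complex and other ARNT partners, 0 had an unadjusted p under 0.05 by edgeR, where 10.1% of genes did. Their median log2 fold change was 0.08. EPAS1, a hypoxia-inducible factor that also pairs with ARNT, was at 0.25 ± 0.11 (SE, adjusted p = 0.541). Of 11 coregulators of transcription, 0 had an unadjusted p under 0.05 by edgeR, beside the same 10.1% of genes, and the median was -0.06. NRIP1, a corepressor, was at 0.45 ± 0.20 (adjusted p = 0.536).

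Of 17 further genes ascribed to the receptor, 14 were tested, edgeR called 0, and DESeq2 called NQO1 (adjusted p = 7.65e-06) and SLC7A5 (0.0282), both lower in HPLM. At an unadjusted p under 0.05, 3 had the higher and 4 the lower value in HPLM, where 5.57% and 4.55% of genes did. Of the 14, 7 had a positive and 7 a negative log2 fold change, with a median of -0.08. NQO1, a quinone reductase, was at 416 CPM in HSC3, 205 CPM in HSC4 and 260 CPM in SAS in HPLM, against 925, 397 and 350 CPM in DMEM. IL1B, an inflammatory cytokine, was at 426, 355 and 76.1 CPM in HPLM, against 196, 297 and 58.7 CPM in DMEM (log2 fold change 0.58 ± 0.18 SE, adjusted p = 0.407 by edgeR). ABCG2, an exporter of drugs and conjugates, was at 12.6, 4.86 and 2.54 CPM in HPLM, against 14.8, 7.44 and 3.66 CPM in DMEM (-0.45 ± 0.17, adjusted p = 0.464).

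Of 15 genes that supply or break down tryptophan-derived ligands, 11 were tested, with a median of -0.08. Of these edgeR called 0, and 2 had the lower value in HPLM at an unadjusted p under 0.05, where 4.55% of genes did. DESeq2 called 1, the tryptophan carrier SLC7A5 (adjusted p = 0.0282), which was lower in HPLM in all 3 lines (log2 fold change -0.37 ± 0.09 SE, adjusted p = 0.368 by edgeR). IDO1, IDO2 and TDO2, the enzymes that open the tryptophan ring, had at most 0.238, 0.216 and 0.0523 CPM in any library. IL4I1, an amino acid oxidase that makes indole ligands, had at most 0.523 CPM. SLC3A2, the partner chain of SLC7A5, was at -0.34 ± 0.13 (SE, adjusted p = 0.48 by edgeR).

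Genes of 2 neighbouring stress programmes are given beside the battery, and their part in its values was not tested. Of 8 targets of NRF2, the oxidative stress factor that also regulates NQO1, edgeR called 0, and 3 had the lower value in HPLM at an unadjusted p under 0.05, where 4.55% of genes did. Among the genes DESeq2 called were NQO1 (adjusted p = 7.65e-06) and SLC7A11 (0.042), both lower in HPLM. Their median was -0.82 for HSC3, -0.03 for HSC4 and -0.11 for SAS, and 4 of them were lower in all lines, where 17% of genes were. Of 10 hypoxia-inducible genes, whose factors share ARNT, edgeR called 0, the median was 0.73, and 6 had the higher and 1 the lower value in HPLM at an unadjusted p under 0.05, where 5.57% and 4.55% of genes did. DESeq2 called 3 of them, all higher in HPLM: ANGPTL4 (adjusted p = 7.67e-06), BNIP3 (7.35e-06) and CA9 (0.00588). BNIP3, a mitochondrial autophagy receptor, was at 151 CPM in HSC3, 148 CPM in HSC4 and 132 CPM in SAS in HPLM, against 49.7, 82.9 and 78.9 CPM in DMEM (1.06 ± 0.18, adjusted p = 0.296 by edgeR). CA9, a carbonic anhydrase, was at 2.41, 28 and 1.17 CPM in HPLM, against 0.523, 8.78 and 0.592 CPM in DMEM.

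**Figure D5:**
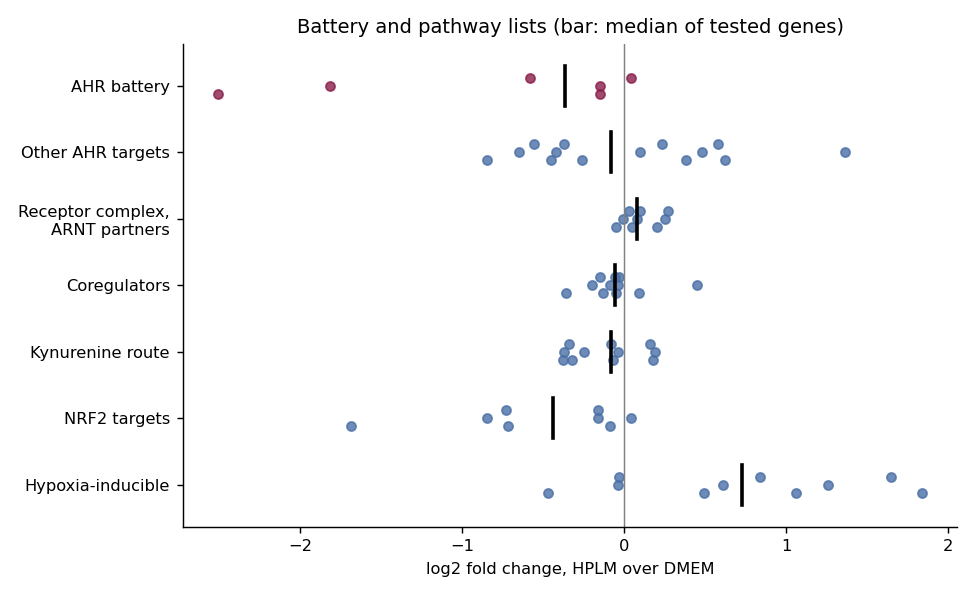
Log2 fold change of HPLM over DMEM (horizontal axis) of each tested gene in the AHR battery and in 6 pathway lists, with 1 point per gene and a bar at the list's median. The hypoxia-inducible genes have a median of 0.73 and the battery one of -0.37; no gene shown passed the edgeR test.

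The genes whose log2 level was most like that of CYP1A1 over the 6 libraries, among 1128 genes with a mean of at least 5 CPM and a log2 range of at least 2, were SLC22A4 (Pearson r = 0.987), PIR (0.976), VIPR1 (0.968), ANO1 (0.961) and RAB8B (0.955). These r values describe 6 libraries that share 3 lines and 2 media. SLC22A4, an organic cation carrier, had 5.69 CPM in HSC3, 9.17 CPM in HSC4 and 2.97 CPM in SAS in HPLM, against 12, 15 and 3.23 CPM in DMEM. PIR, an iron-binding nuclear protein, had 8.45, 10.3 and 4.93 CPM in HPLM, against 16.2, 20.9 and 6.02 CPM in DMEM. Both had their highest value in HSC4 in DMEM and their smallest gap between media in SAS. CYP1A1 has the same 2 traits, and as both genes were picked for likeness to it, this adds no separate result.

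For UGT1A6 the most alike were PRICKLE1 (Pearson r = 0.966), ALPP (0.961), HPCAL1 (0.936), IFIT2 (0.899) and PTK6 (0.887), over the same 6 libraries. ALPP, placental alkaline phosphatase, had 0.41 CPM in HSC3, 18.8 CPM in HSC4 and 1.27 CPM in SAS in HPLM, against 4.81, 101 and 24.3 CPM in DMEM. Its log2 fold change was -3.12 ± 0.35 (SE, adjusted p = 0.155 by edgeR), and it is nearly identical to other alkaline phosphatase genes, between which reads may be divided.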

How the data were processed

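The submitters' processing notes name FastQC, kallisto and hg38; versions and annotation release: not given in the sources used here. The authors deposited 1 table of expected counts (estimated counts, scaled TPM by its name) per transcript: abundances scaled to library size and thus corrected for transcript length, so precision taken from a count is approximate and no counting interval is given. The 0 unused columns of per-sample values, and the match of columns to samples by line and medium, were checked; DMEM columns name only the line and carry an unexplained ending. The labels say that libraries were strand-specific.

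The table held 161149 rows for 159837 transcripts; 1312 repeated rows (0.21% to 0.27% of a library) were counted once and 6878 transcripts without a symbol (0.362% to 0.479%) left out. Sums by symbol were rounded. Positions and transcript types came from GENCODE 29 (GRCh38), which held 95.3% of the transcripts that had a symbol.

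Genes passing filterByExpr by medium (minimum count 10, minimum total 15; 13236 genes) were TMM-scaled and fitted with line and medium as terms by the edgeR quasi-likelihood test (2 residual and 4 prior degrees of freedom), with Benjamini-Hochberg adjustment over all genes; a call is an adjusted p under 0.05. Tools were edgeR 4.0.16, DESeq2 1.42.0 and limma 3.58.1 in R 4.3.3. CPM use TMM-scaled library sizes, and ratios per line use a prior count of 2. Each edgeR SE is the absolute log2 fold change divided by the square root of its quasi-likelihood F. It is a moderated value of the fit, not the spread of the line ratios. The edgeR test was also run on simulated counts with a common spread for all genes and the same medium difference in every line. The CYP1A1 ratios differed between lines, so that run does not show how often such a difference would be called. Alternatives were other scalings, no filter, DESeq2, limma-voom, limma-trend, no line block, repeated rows counted, 1 line or library left out, the UGT1A locus summed and, chosen after seeing the data, all AHRR transcripts summed and the AHR coding transcript alone.

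The line pairs the libraries: deviations from the medium's mean correlated across genes at 0.779, 0.792 and 0.805 within a line and at most -0.335 between lines. As the mean of the lines was subtracted, positive values within lines pull those between lines negative, so the latter add no separate evidence. Members, lists and tests were chosen with earlier results of these data known. All 7 members are named, up to 4 genes per list by smallest unadjusted p between media at a mean of 1 CPM or more, and up to 5 genes per enzyme by Pearson r over 6 libraries among genes with a mean of 5 CPM or more and a log2 range of 2 or more; UGT1A1, the tryptophan-opening enzymes, IL4I1 and the genes in the last part of the closing section were chosen after their values were seen. For some list genes the result is not reported here.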

Additional observations from a re-analysis of the deposited data

Results flagged for a closer look

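AHR lay on opposite sides of 0 in different lines, with a log2 ratio of HPLM over DMEM of -0.34 for HSC3, 0.07 for HSC4 and 0.39 for SAS. Its protein-coding transcript alone was at 98.7% of the DMEM level for HSC3, 97.7% for HSC4 and 112% for SAS. TIPARP likewise had log2 ratios of -0.09 for HSC3, 0.07 for HSC4 and -0.44 for SAS. Each line has 1 library per medium, so these differences between lines were not tested.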

How the results depend on the processing

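Between media, edgeR called 1 gene of all tested, and the same number with the size factors of DESeq2, with no scaling factor and with repeated rows counted. It called 0 with upper-quartile scaling, without the low-count filter and with no replicate block, DESeq2 called 127, limma-voom 9 and limma-trend 0. With 1 line left out the count lay between 0 and 4 (4 without HSC3, 0 without HSC4, 0 without SAS). The 2 values that changed sign there were those of AHR, at -0.01 with no scaling factor and between -0.13 and 0.22 with 1 line left out (-0.13 without SAS); 72 others kept their direction and side of the threshold, and UGT1A6 passed with DESeq2 (-1.87). Without the block, log2 fold changes were -2.57 for CYP1A1, -1.68 for UGT1A6 and -0.36 for AHRR, each with an adjusted p of 1.

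Between lines, 1 library left out gave 2445 to 4844 calls for HSC3 against HSC4, 2848 to 5000 for HSC3 against SAS and 2787 to 5554 for HSC4 against SAS; a lone library is then assumed to vary like the others. AHR for HSC3 against SAS ranged from -0.05 to 0.51, below 0 without HSC3 in DMEM (-0.05) or SAS in DMEM (-0.04). Without a term for the medium, the calls of CYP1A1 (adjusted p = 0.297 and 0.0547 by edgeR) and UGT1A6 (0.0946 and 0.313) were lost for HSC3 against HSC4 and HSC3 against SAS, and that of UGT1A6 (0.381) for HSC4 against SAS. The cause of these changes was not tested. With 3 lines and low estimated counts for CYP1B1, AHRR and CYP1A1 in SAS, small differences were not detectable.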

Other observations

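The enzymes that process kynurenine, a tryptophan breakdown product and AHR ligand, are given by line; these genes were chosen after their values were seen. KYNU, kynureninase, had 95.9 CPM in HPLM and 88.7 CPM in DMEM in HSC3, 84.1 CPM in HPLM and 101 CPM in DMEM in HSC4, and 4.24 CPM in HPLM and 1.77 CPM in DMEM in SAS. Its log2 fold change was 4.95 ± 0.34 (SE) for HSC3 over SAS (edgeR adjusted p = 0.00061) and 4.96 ± 0.34 for HSC4 over SAS (adjusted p = 0.000593). KMO, kynurenine monooxygenase, was also higher in both (2.89 ± 0.32, adjusted p = 0.00187, and 3.59 ± 0.32, adjusted p = 0.00106). AADAT, which makes kynurenic acid, had 2.66 CPM in HPLM and 2.4 CPM in DMEM in HSC3, 6.96 CPM in HPLM and 9.06 CPM in DMEM in HSC4, and was listed at 0 in HPLM and at 0.108 CPM in DMEM in SAS.

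Among other genes ascribed to the receptor, the order of lines varied. SERPINB2, a protease inhibitor, had 849 CPM in HPLM and 541 CPM in DMEM in HSC3, 52.2 CPM in HPLM and 18.1 CPM in DMEM in HSC4, and 644 CPM in HPLM and 744 CPM in DMEM in SAS. It was higher in HSC3 than in HSC4 (log2 fold change 4.39 ± 0.41 SE, edgeR adjusted p = 0.00148), where CYP1A1 was lower. ALDH3A1, an aldehyde dehydrogenase, had 0.205 CPM in HPLM and was listed at 0 in DMEM in HSC3, with 3.94 CPM in HPLM and 10.3 CPM in DMEM in HSC4, and 1.32 CPM in HPLM and 1.83 CPM in DMEM in SAS.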
